A study of Arabidopsis thaliana with 10 samples.

Results

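LHCB4.1 (AT5G01530), PSAE-1 (AT4G28750), PSBY (AT1G67740) and RCA (AT2G39730) are 4 nuclear genes for proteins of the chloroplast's photosynthetic machinery. They were taken by gene symbol from the platform annotation, which gave 1 probe set for each of them, and they are 4 of 13350 genes named in this way on the array. Light energy is collected by pigment-binding antenna proteins, drives electrons through photosystem II and photosystem I in the thylakoid membrane, and supplies the Calvin cycle, in which Rubisco fixes carbon dioxide. Most subunits of this machinery are encoded in the nucleus, and their mRNAs are among the most abundant in green seedlings. LHCB4.1 encodes CP29, a minor antenna protein between photosystem II and its main antenna. PSAE-1 encodes a subunit on the stromal side of photosystem I, where ferredoxin takes up electrons. PSBY encodes small membrane proteins of photosystem II, and RCA encodes Rubisco activase, which frees Rubisco of inhibitory sugar phosphates.

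The arrays measured seedlings of Arabidopsis thaliana at 12 days of age, grown without stress, from 5 lines with 2 arrays each, 10 arrays in all. FL3 constitutively expressed full-length TaSIN, and ΔC26 and ΔC27 were independent lines that constitutively expressed TaSIN without its transmembrane motif. The controls were VC, which carried an empty vector, and the untransformed wild type Col-0. The full-length construct was represented by 1 line, no promoter is named in the labels, and no probe set was annotated for the transgene, so its level in each line was not measured. Array medians of the deposited linear intensities lay between 41.8 and 44.3. Replicate arrays correlated over all probe sets at 0.9856 in ΔC26 and 0.9707 in ΔC27, against 0.9907 to 0.993 in the other lines. ΔC26 replicate 1 and both ΔC27 arrays were closer to an FL3 array, at 0.9887, 0.9709 and 0.9825, than to their own replicate. The main differences between the truncated lines are given with and without these arrays. Of the tissue markers with a named probe set, the root genes PYK10 and NAI2 were readily detected. The root genes EXPA7 (7.55 to 34.4) and EXPA18 (10.6 to 54.0) were dim. Below an intensity of 16 on all 10 arrays were 2 of 3 flower and pollen genes and 1 of 3 guard-cell lineage genes.

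The 4 genes were bright in every line, and their highest and lowest arrays differed by less than 2-fold. RCA was the 42nd brightest of 22746 probe sets by its mean, LHCB4.1 the 50th, PSAE-1 the 102nd and PSBY the 236th. The order describes these probe sets only, since brightness also depends on the probes. The highest array exceeded the lowest 1.53-fold for LHCB4.1, 1.55-fold for RCA, 1.85-fold for PSAE-1 and 1.94-fold for PSBY.

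LHCB4.1, the antenna gene, read 5817 and 5323 in VC, 5170 and 5212 in Col-0, 4717 and 4765 in FL3, 5088 and 5575 in ΔC26, and 3791 and 3813 in ΔC27 (intensity, replicates 1 and 2). Both ΔC27 arrays lay below all 8 others, and both FL3 arrays lay below all arrays of the remaining 3 lines. By line means the order ran from VC through ΔC26, Col-0 and FL3 down to ΔC27. Of the 4 steps in this order, that from FL3 to ΔC27, 0.32 on the log2 scale, was the largest. It exceeded 0.27, the distance from the estimate to either end of the 95% interval for a pair of lines. The other steps were smaller than that distance. The interval makes no allowance for picking neighbours by their means, and the adjusted p of this pair over all probe sets was 0.27 in limma.

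PSAE-1, of photosystem I, read 3723 and 3738 in VC, 3419 and 3383 in Col-0, 3368 and 3184 in FL3, 3917 and 4621 in ΔC26, and 2500 and 3101 in ΔC27. The ΔC26 arrays were the highest pair and the ΔC27 arrays the lowest pair of the 10, and no line overlapped the next one in the order ΔC26, VC, Col-0, FL3, ΔC27. Each single step in that order stayed within that distance, here 0.32. The replicates were less alike in both truncated lines, where they differed by 16.5% (ΔC26) and 21.5% (ΔC27) of the line mean, than in VC and Col-0, where they differed by 0.406% and 1.07%.

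PSBY, of photosystem II, read 2454 and 2178 in VC, 2111 and 1862 in Col-0, 2385 and 2141 in FL3, 2625 and 3227 in ΔC26, and 1663 and 2065 in ΔC27. Both ΔC26 arrays lay above all 8 others. ΔC27 replicate 1 was the lowest array, whereas ΔC27 replicate 2 lay within the range of Col-0. No step between neighbouring lines exceeded that distance, here 0.36.

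RCA, for Rubisco activase, read 5493 and 5124 in VC, 4967 and 4160 in Col-0, 5284 and 5816 in FL3, 6091 and 6460 in ΔC26, and 4453 and 4394 in ΔC27. Again the ΔC26 arrays were the highest pair. The lowest array was Col-0 replicate 2, and the ΔC27 arrays lay between the 2 Col-0 arrays. No step between neighbouring lines exceeded it, here 0.31.

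**Figure D1:**
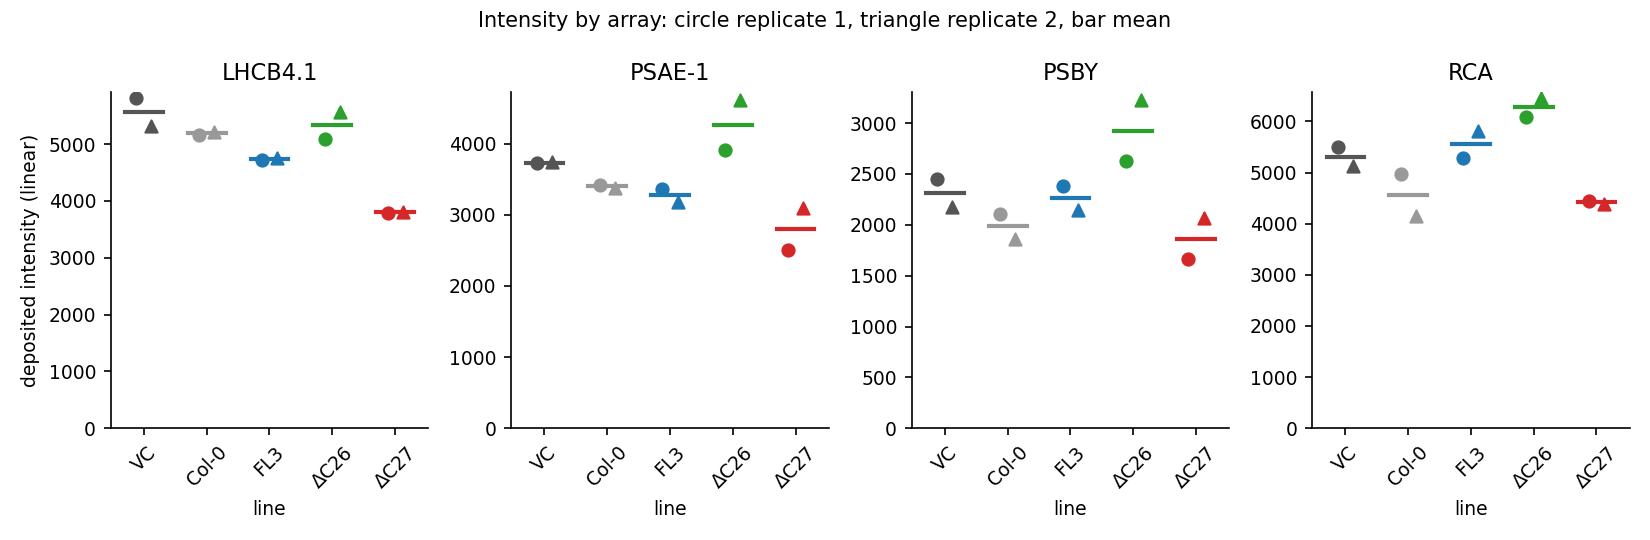
Deposited linear intensity (y axis, from 0) of the 4 genes on each array, by line (x axis). Circles are replicate 1, triangles replicate 2 and bars the mean of the 2 arrays. In all 4 panels both ΔC26 arrays lie above both ΔC27 arrays, while the position of the controls relative to these 2 lines differs from gene to gene.

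The comparison of the truncated lines asked whether 2 lines with the same construct carry these transcripts at the same level. All 4 genes read higher in ΔC26 than in ΔC27, as did 49.8% of all probe sets and 54.6% of those with a mean intensity of at least 1000, by 40.2% for LHCB4.1, 52.5% for PSAE-1, 57.0% for PSBY and 41.9% for RCA. In each of them both ΔC26 arrays lay above both ΔC27 arrays, which was so for 22.9% of all probe sets. None of the 4 differences passed the threshold used throughout, a Benjamini-Hochberg adjusted p under 0.05 over all 22746 probe sets in limma's moderated test on log2(intensity + 16). The differences were 0.48 ± 0.12 for LHCB4.1 (log2 ± SE, 95% interval 0.21 to 0.76), 0.61 ± 0.14 for PSAE-1 (0.28 to 0.93), 0.65 ± 0.16 for PSBY (0.28 to 1.01) and 0.50 ± 0.14 for RCA (0.20 to 0.81). Their adjusted p in limma were 0.069, 0.058, 0.067 and 0.086. Over the whole array 2.95% of probe sets were called in this comparison, 2.12% higher and 0.822% lower in ΔC26. At an unadjusted p under 0.05 all 4 genes passed, as did 17.7% of all probe sets.

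These adjusted p lay near the threshold and moved across it with the setting. When the dimmest probe sets were left out, all 4 genes passed (limma, adjusted p from 0.029 to 0.047). With a variance prior that did not follow intensity LHCB4.1, PSAE-1 and RCA passed, and with a robust prior LHCB4.1 and PSAE-1 did. Without ΔC27 replicate 2, PSAE-1 and PSBY passed (limma, adjusted p = 0.025 and 0.033). Without ΔC26 replicate 1 the differences were 0.55, 0.73, 0.79 and 0.54 for LHCB4.1, PSAE-1, PSBY and RCA, and without ΔC26 replicate 2 they were 0.42, 0.49, 0.50 and 0.46. Without ΔC27 replicate 1 they were 0.48, 0.45, 0.49 and 0.51, and none passed in these 3 settings. With ΔC26 replicate 2 and ΔC27 replicate 1 both left out, the differences were 0.41, 0.34, 0.34 and 0.47 in the same gene order, and none passed (limma, adjusted p from 0.33 to 0.46). For PSBY and PSAE-1 this moved the difference by over 1.5 times, and for LHCB4.1 and RCA it did not.

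Brightness moved with this difference. Among the 787 probe sets with a mean intensity of at least 1000, the median difference between ΔC26 and ΔC27 was 0.073, against -0.001 over all probe sets, and 41.4% had both ΔC26 arrays above both ΔC27 arrays. Among the 72 probe sets with a mean log2 value above 12, which include LHCB4.1 and RCA, the median was 0.232, and 0.48 for LHCB4.1 and 0.50 for RCA lay close to the 75th percentile of 0.49. Among the 201 probe sets between 11 and 12, which include PSAE-1 and PSBY, the 75th percentile was 0.52 and the 90th was 0.805, with both genes between them. With quantile normalization, which gives all arrays the same distribution, the 4 differences were 0.38 for LHCB4.1, 0.55 for PSAE-1, 0.56 for PSBY and 0.37 for RCA. How far a change in bright probe sets as such took part in the differences was not tested beyond these values.

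**Figure D2:**
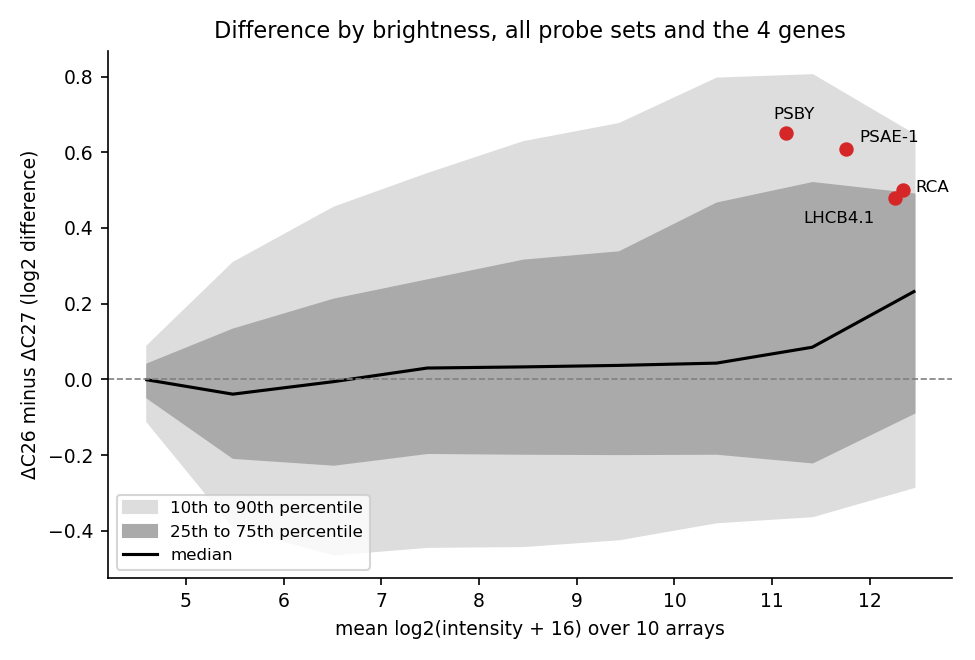
ΔC26 minus ΔC27 (log2 difference, y axis) against mean log2(intensity + 16) over 10 arrays (x axis), with percentiles of all 22746 probe sets in bins of brightness and the 4 genes in red. The median of all probe sets is highest, 0.232, in the brightest bin, and the 4 genes lie near or above the 75th percentile of their bins.

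Against the controls, the difference between the truncated lines fell on different sides of the control level for different genes. LHCB4.1 fell in ΔC27 and stood at the control level in ΔC26, whereas the estimates for PSBY and RCA lay further from the controls in ΔC26 than in ΔC27, without passing in either. LHCB4.1 fell in ΔC27 by 29.3%, from 5381 ± 298 over the 4 control arrays (SD, n = 4) to 3802 ± 15.9 (SD, n = 2), a log2 change of -0.50 ± 0.11 (SE; limma, adjusted p = 0.012). It was the only 1 of the 4 called in ΔC27, where 16.7% of all probe sets were called, 8.49% lower and 8.2% higher. The call rested on both ΔC27 arrays, since the adjusted p in limma was 0.063 without replicate 1 and 0.054 without replicate 2, at differences of -0.49 and -0.50. Among the probe sets with a mean intensity of at least 1000, 28.6% were called lower in ΔC27. In bulk seedlings, fewer green cells and less of an mRNA per cell cannot be told apart.

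For PSAE-1 the difference of ΔC27 from the controls was -0.35 ± 0.13 on the log2 scale, for PSBY -0.21 ± 0.14 and for RCA -0.15 ± 0.12, and none of these passed (limma, adjusted p = 0.088, 0.38 and 0.46). The PSAE-1 and LHCB4.1 arrays of ΔC27 lay below all 8 other arrays, which held for 9.53% of all probe sets, and those of PSBY and RCA did not. This share was not counted among bright probe sets alone. At an unadjusted p under 0.05, LHCB4.1 and PSAE-1 passed, beside 29.1% of all probe sets. The PSBY difference rested largely on replicate 1: without it the value was -0.05.

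In ΔC26 none of the 4 genes was called against the controls, where 2.71% of all probe sets were. The PSBY difference was 0.44 ± 0.14 (95% interval 0.13 to 0.75), that of RCA 0.35 ± 0.12 (0.09 to 0.62) and that of PSAE-1 0.26 ± 0.13 (-0.03 to 0.54), while LHCB4.1 stood at -0.01 ± 0.11 (log2 ± SE; limma, adjusted p = 0.13, 0.15, 0.32 and 0.97). In PSBY, RCA and PSAE-1 both ΔC26 arrays lay above all 8 other arrays, which held for 3.68% of all probe sets. At an unadjusted p under 0.05, 2 of the 4 passed, PSBY and RCA, beside 18.3% of all probe sets. Replicate 2 was the higher ΔC26 array for each gene, and without it the differences were 0.29 for PSBY, 0.31 for RCA and 0.14 for PSAE-1. For PSAE-1, PSBY and RCA both ΔC26 arrays lay above and both ΔC27 arrays below the control mean, as for 5.47% of all probe sets. Neither this share nor the 3.68% was counted among bright probe sets alone. Both truncated lines were set against the same control arrays, so these 2 comparisons are not independent.

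FL3 stood close to the controls. The differences from the controls were -0.18 ± 0.11 for LHCB4.1, -0.12 ± 0.13 for PSAE-1, 0.08 ± 0.14 for PSBY and 0.17 ± 0.12 for RCA (log2 ± SE), and none passed (limma, adjusted p from 0.56 to 0.90, with 2.69% of all probe sets called, 2.2% higher). None had an unadjusted p under 0.05 either, beside 13.2% of all probe sets. The 95% intervals reached from -0.42 to 0.06 for LHCB4.1, -0.40 to 0.16 for PSAE-1, -0.24 to 0.39 for PSBY and -0.09 to 0.44 for RCA. The LHCB4.1 and PSAE-1 arrays of FL3 all lay below the 4 control arrays. The share of all probe sets with this pattern was not counted, so it has no background here.

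The full-length line lay between the truncated lines for all 4 genes, as the empty-vector line VC did for PSAE-1, PSBY and RCA but not for LHCB4.1. Both FL3 arrays were below both ΔC26 arrays and above both ΔC27 arrays in each gene, as for 3.77% of all probe sets. Among bright probe sets this share was not counted. Both ΔC26 arrays lay above both ΔC27 arrays in 22.9% of all probe sets and 41.4% of those with a mean intensity of at least 1000. The differences from ΔC26 ran from -0.38 for PSAE-1 to -0.17 for LHCB4.1, and those from ΔC27 from 0.23 for PSAE-1 to 0.32 for RCA and LHCB4.1, on the log2 scale. None passed in either comparison (limma, adjusted p from 0.38 to 0.69 and from 0.27 to 0.53), where 0.237% and 0.866% of all probe sets were called. Against ΔC26, 0.044% were called higher and 0.193% lower in FL3. At an unadjusted p under 0.05, 2 of the 4 passed in each: PSAE-1 and PSBY against ΔC26, LHCB4.1 and RCA against ΔC27, beside 11.2% and 14.1% of all probe sets.

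The control lines gave the background. All 4 genes read higher in VC than in Col-0, by 0.10 for LHCB4.1, 0.13 for PSAE-1 and 0.22 for PSBY and RCA on the log2 scale, with both VC arrays above both Col-0 arrays, as for 20.3% of all probe sets. None of these passed (limma, adjusted p from 0.81 to 0.93, none with an unadjusted p under 0.05 beside 7.01% of all probe sets, and 0.0264% of all probe sets called, 0.022% higher and 0.0044% lower). In a moderated F test of any difference among the 5 lines, adjusted p was 0.077 for LHCB4.1, 0.12 for PSAE-1 and 0.13 for PSBY and RCA (limma), so that none passed while 9.01% of all probe sets did. At an unadjusted p under 0.05 all 4 passed, beside 24.4% of all probe sets.

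**Figure D3:**
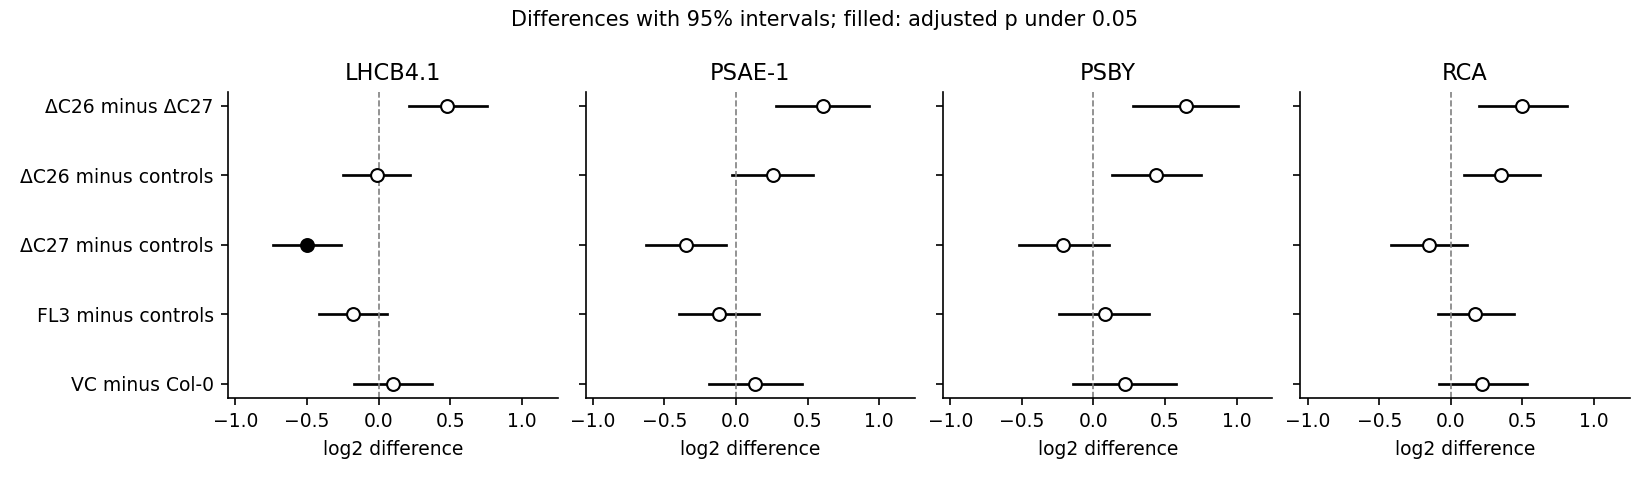
Log2 difference (x axis) of each gene in 5 comparisons (rows), with 95% intervals from the limma fit; controls are the mean of VC and Col-0. The only filled point, LHCB4.1 in ΔC27 against controls, marks an adjusted p under 0.05, and the ΔC26 minus ΔC27 intervals lie above 0 in all 4 panels.

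Over the 10 arrays the 4 genes were not all equally alike. Pearson coefficients of the log2 values were 0.90 between PSAE-1 and PSBY, 0.86 between PSBY and RCA and 0.81 between LHCB4.1 and PSAE-1, but 0.54 between LHCB4.1 and RCA. These describe 10 arrays that share lines, labelling and scaling. Of 3584 candidate probe sets with 1 gene and a mean log2 value of at least 7, the 3 most like RCA were SBPASE (0.973), which encodes the Calvin cycle enzyme sedoheptulose-bisphosphatase, ATPC1 (0.969), a subunit of the chloroplast ATP synthase, and AT4G10300 (0.954). Those most like PSAE-1 were PSBW (0.943), a small subunit of photosystem II, AT1G54500 (0.937) and AT3G53470 (0.934). For PSBY they were AT4G01395 (0.938), AT1G21500 (0.931) and AT5G24570 (0.918), with PSAE-1 in place 6. For LHCB4.1 they were AT1G21670 (0.968), AT1G16260 (0.966) and AT1G21680 (0.961), and PSAE-1 came only in place 224. The AT1G21680 level was 2070.8 over the controls, 1829.6 in ΔC26 and 720.0 in ΔC27. SBPASE read 1230 over the controls, 1857 in ΔC26 and 883.9 in ΔC27, above the controls in the first line and below them in the second. These genes were picked for their likeness over the same 10 arrays, so a line pattern shared with LHCB4.1 or RCA follows from the choice.

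Other nuclear genes for photosynthesis and chlorophyll synthesis were listed by pathway, with earlier results of these data known. Few listed names had a named probe set. They were 3 of 27 for the antenna (LHCB4.1, LHCB4.2 and LHCB4.3) and 3 of 31 for the Calvin cycle and Rubisco (RCA, SBPASE and PRK). The genes found therefore do not stand for the whole pathways. Of 25 such genes with a named probe set, 22 read higher in ΔC26 than in ΔC27. Of all probe sets 49.8% did, and of those with a mean intensity of at least 1000, 54.6%. Both ΔC26 arrays lay above both ΔC27 arrays in 21 of the 25 genes, against 22.9% of all probe sets and 41.4% of the bright ones. The median difference of the 25 genes was 0.40 on the log2 scale, against -0.001 over all probe sets and 0.073 over the bright ones. Below 0 were HEMA2, HEMA3 and ATPC2, named after their values were seen. ATPC2, another gene for the ATP synthase subunit that ATPC1 encodes, was dim and read 40.6 and 37.9 in ΔC26 and 57.3 and 53.7 in ΔC27, with separate arrays (-0.37; limma, adjusted p = 0.27). Higher in ΔC26 past the threshold were 4 of the 25: LHCB4.2, PSAN, SBPASE and PRK. This compares with 2.12% of all probe sets and 79 of the 787 with a mean intensity of at least 1000. None was called in the other direction. Without ΔC26 replicate 2 the count was 0 (limma, adjusted p = 0.11 for LHCB4.2, 0.06 for PSAN, 0.052 for SBPASE and 0.09 for PRK, at differences of 1.33, 0.84, 0.98 and 0.99). Without ΔC27 replicate 1 it was 2, since LHCB4.2 and PSAN each reached an adjusted p of 0.051 in limma, at differences of 1.13 and 0.77.

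LHCB4.2 encodes another form of CP29 and read 1260 and 1429 in ΔC26 and 402 and 604 in ΔC27, against 1323 and 1336 in VC and 1774 and 2012 in Col-0. The FL3 arrays, at 1156 and 718, were also below all control arrays, but this difference of -0.79 did not pass (limma, adjusted p = 0.089). The difference between the truncated lines was 1.42 ± 0.24 (limma, adjusted p = 0.017), and the fall in ΔC27 against the controls was -1.65 ± 0.20 on the log2 scale (limma, adjusted p = 0.001), both larger than for LHCB4.1. LHCB4.3, another member of the CP29 family, was dim, with 85.7 and 108 in ΔC26, 72.9 and 57.8 in ΔC27 and 55.5 to 91.2 in the controls, and its difference of 0.47 did not pass (limma, adjusted p = 0.29). Whether each probe set reads its own family member alone was not tested.

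PSAN encodes a lumenal subunit of photosystem I. It read 3248 and 3107 in ΔC26 and 1764 and 1861 in ΔC27, with 2613 to 3029 in the controls and 2256 and 2428 in FL3. Its difference was 0.80 ± 0.13 (limma, adjusted p = 0.014). PSB27 and PSBW of photosystem II had differences of 0.62 and 0.54 that did not pass (limma, adjusted p = 0.071 and 0.073), close in size to that of PSBY. Nor did TROL, a thylakoid protein that tethers ferredoxin-NADP reductase, with 0.65, and ATPC1 with 0.49 (limma, adjusted p = 0.075 and 0.15).

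In the Calvin cycle, SBPASE read 1764 and 1950 in ΔC26 and 883 and 885 in ΔC27, with 951 to 1405 in the controls and 1396 and 1595 in FL3. It was the only 1 of the 25 genes called higher in ΔC26 against the controls, by 0.60 ± 0.12, though 16 read higher and 9 lower. In ΔC27 it was called lower, by 0.45 ± 0.12 on the log2 scale (limma, adjusted p = 0.035 and 0.030). The rise in ΔC26 lost its call against VC alone, where it was 0.40, and without ΔC26 replicate 2, where it was 0.53 (limma, adjusted p = 0.23 and 0.27), and it was called under 12 of 21 alternatives in all. The fall in ΔC27 lost its call against Col-0 alone, at -0.25, and without either ΔC27 array (limma, adjusted p = 0.30, 0.11 and 0.10), and it was called under 13 of 21. PRK, for phosphoribulokinase, read 2062 and 2152 in ΔC26 and 1003 and 1065 in ΔC27, with 1593 to 2170 in the controls, a difference of 1.02 ± 0.16 (limma, adjusted p = 0.015).

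Against the controls 21 of the 25 genes read lower in ΔC27 and 4 higher. Called lower were 8 of the 25 and called higher none, where 8.49% of all probe sets and 28.6% of those with a mean intensity of at least 1000 were called lower. The median difference was -0.36 on the log2 scale, against 0.001 over all probe sets and -0.173 over those bright ones. Besides LHCB4.2 and SBPASE, those called lower were PSAN (-0.59), PRK (-0.84), TROL (-0.60), CHLM (-0.74), which encodes an enzyme of chlorophyll synthesis, and LPA2 (-0.46) and AT4G01150 (-0.43). AT4G01150 encodes CURT1A, which bends thylakoid membranes, and LPA2 encodes an assembly factor of photosystem II; these last 2 were named after their values were seen. The count was 4 without ΔC27 replicate 1 and 6 without replicate 2, 5 and 4 without VC replicate 1 and 2, and 4 without Col-0 replicate 1. In ΔC26, 1 of the 25 was called, SBPASE, with a median of 0.04, where 1.91% of all probe sets were called higher, and in FL3 none was (limma; 2 of 25 at an unadjusted p under 0.05, beside 13.2% of all probe sets).

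Of 32 listed names of chlorophyll synthesis, 9 had a named probe set. Of these 9 genes, 7 read higher in ΔC26 than in ΔC27, as did 49.8% of all probe sets, with a median of 0.27. None passed in this comparison, and 2 of 9 had an unadjusted p under 0.05 in limma, beside 17.7% of all probe sets. HEMA3 was at background, from 5.46 to 7.18 on all arrays, with a difference of -0.04. The CHLM difference was 0.51 (limma, adjusted p = 0.078). HEMA2, a glutamyl-tRNA reductase gene used for the first step of the pathway, read 245 and 74.3 on the ΔC27 arrays and 85.4 to 120 on the 8 others, so that its difference of -0.52 rested on ΔC27 replicate 1 and was 0.25 without it. NOL, for a chlorophyll b reductase of chlorophyll breakdown, read 190 and 206 in ΔC26, within the 146 to 218 of the controls. Its ΔC27 arrays, at 117 and 118, lay below all control arrays. It was higher in ΔC26 than in ΔC27 by 0.68 ± 0.13 (limma, adjusted p = 0.031). It lost that call without any 1 of VC replicate 1 or 2, FL3 replicate 1 or 2, ΔC26 replicate 2 or ΔC27 replicate 1 (limma, adjusted p from 0.05 to 0.12), and with the replicate number as a block (0.056).

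**Figure D4:**
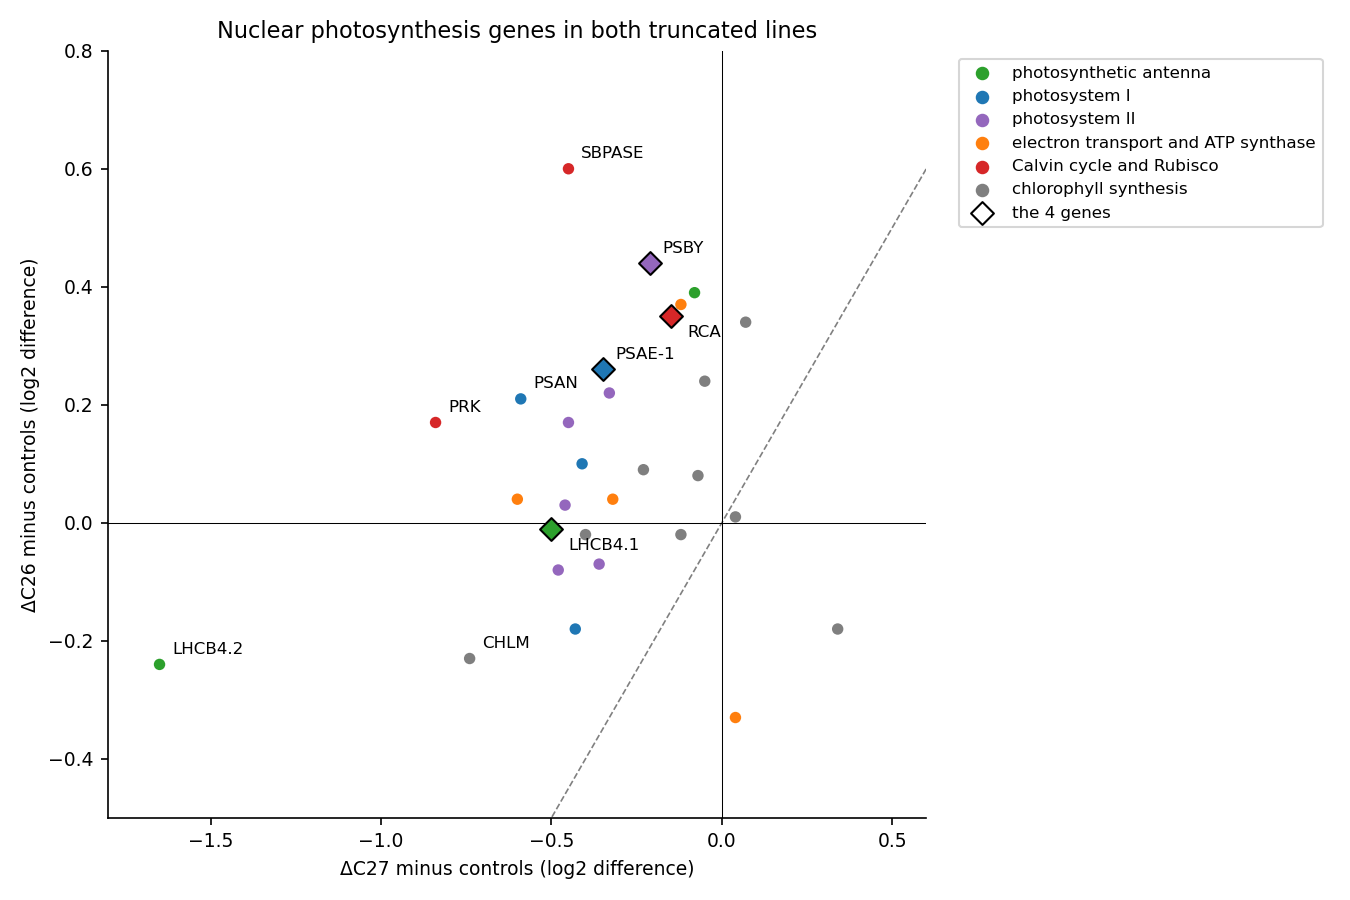
Log2 difference from the controls in ΔC27 (x axis) and ΔC26 (y axis) for 25 nuclear genes of 6 pathway lists (dots, coloured by list) and the 4 genes (diamonds); the dashed line marks equal values. Points above the line read higher in ΔC26 than in ΔC27, as 22 of the 25 genes and all 4 diamonds do; both axes use the same control arrays.

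WRKY53, a senescence regulator on the same list as NOL, read 358 and 16.6 in ΔC27 and 40.1 and 55.1 in ΔC26, and did not pass (-0.81; limma, adjusted p = 0.69). HYH, for a light-signalling transcription factor, was dim, from 5.89 to 8.25.

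Markers of other tissues were read beside these genes. Of 36 listed root names, 4 had a named probe set: EXPA7, EXPA18, NAI2 and PYK10. Together they summed to 3069 and 3286 on the ΔC26 arrays, below the 3326 to 5968 of the control arrays. On the ΔC27 arrays they summed to 4010 and 4635, within that range. The sums were nearly all PYK10 and NAI2. The dim EXPA7 and EXPA18 ran the other way, with means of 24.2 and 40.9 in ΔC26, 20.1 and 32.9 in ΔC27 and 11.8 and 20.4 in the controls. None of the 4 was called between the truncated lines or in either of them against the controls; at an unadjusted p under 0.05, NAI2 and EXPA18 passed in ΔC26 against the controls (limma). The single vascular marker with a named probe set, the sugar transporter gene SWEET11, read 989 and 1162 in ΔC26, 570 and 963 in ΔC27 and 1174 to 1352 in the controls. SWEET11 was called lower in ΔC27 against the controls, as LHCB4.1 and 8.49% of all probe sets were, at -0.76 (limma, adjusted p = 0.022). That call held under 16 of 21 alternatives, and over all 21 the difference ran from -1.13 to -0.39. The 3 guard-cell lineage genes with a named probe set summed to 89 to 101 in ΔC26, 72 to 73 in ΔC27 and 95 to 149 in the controls. FMA made up most of the sum and was called lower in ΔC27 against the controls, at -0.74 (limma, adjusted p = 0.017). This call held under 17 of 21 alternatives, and over all 21 the difference ran from -0.9 to -0.48. SPCH, dim in all lines, stood at 0.27 above the controls in ΔC26 and did not pass (limma, adjusted p = 0.10). GI, the 1 of 33 listed clock names with a named probe set, read 182 and 257 in ΔC26, 131 and 137 in ΔC27, and 149 to 243 in the controls. Its difference between the truncated lines, 0.64, did not pass (limma, adjusted p = 0.22). The part of tissue makeup or of the time of harvest in the differences was not tested.

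**Figure D5:**
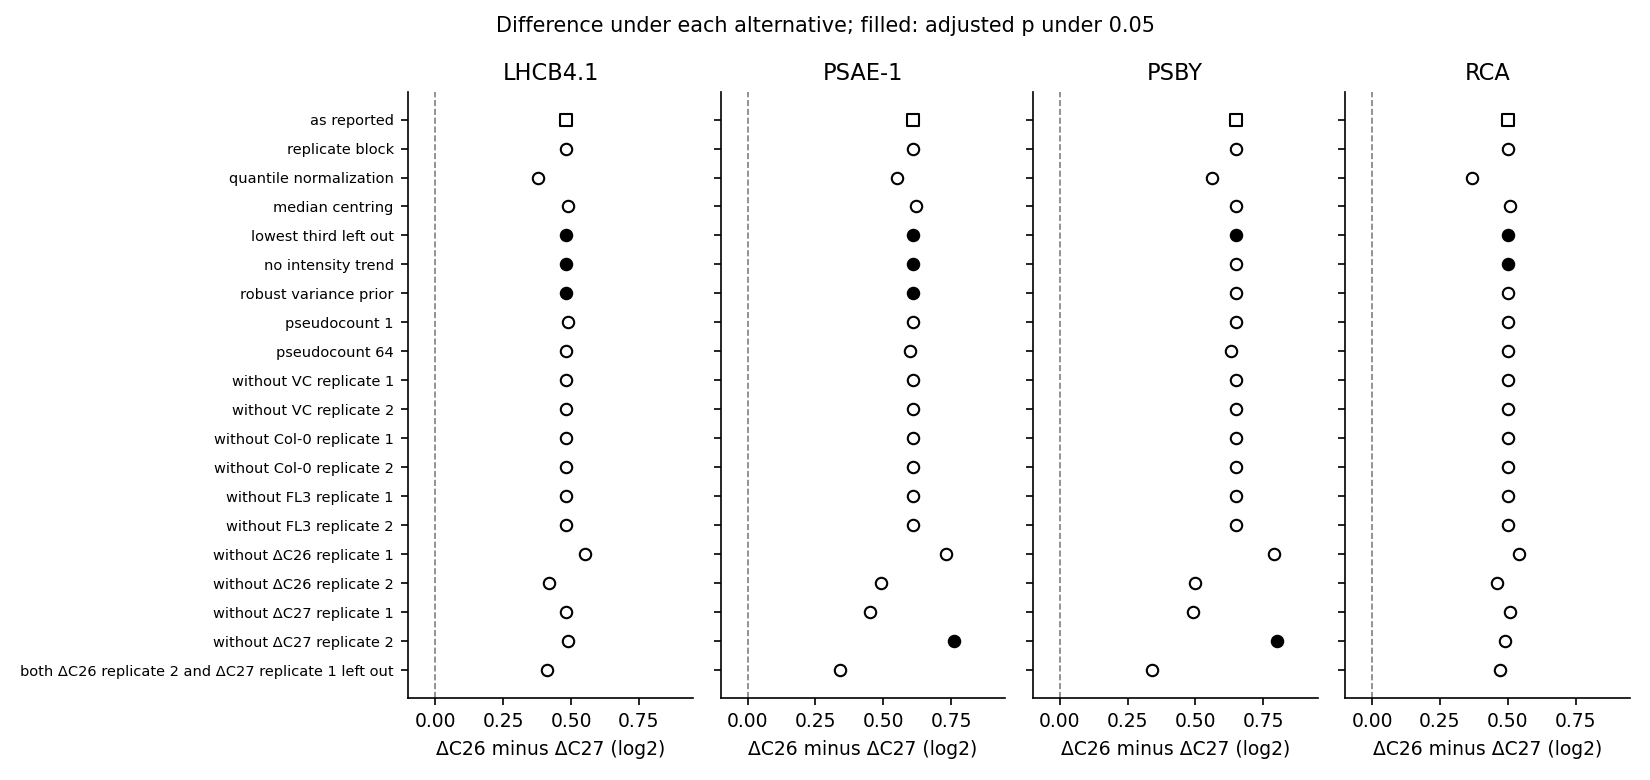
ΔC26 minus ΔC27 (log2 difference, x axis) of each gene under every alternative setting (rows); filled points passed the threshold and the square is the value as reported. All values lie above 0, from 0.34 to 0.80, and the filled points gather in the settings that change the variance prior or the number of probe sets, and, for PSAE-1 and PSBY, without ΔC27 replicate 2.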

How the data were processed

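Total RNA of 12-day-old seedlings was amplified, biotin-labelled and hybridised to Affymetrix arrays, per the labels' protocols. The authors deposited linear intensities, 1 per probe set and array, from 3.68 to 12648. How they summarised, scaled and background-corrected them is not given in the sources used here. The number of arrays limits the precision.

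The 64 control probe sets were left out, leaving 22746, of which the annotation named 1 gene for 13513, several for 503 and none for 8730, and 13436 were matched to a TAIR10.1 locus. Of all values 34.8% were below 16. The values were transformed as log2(value + 16), on which all log2 differences are given. Percentages between lines or replicates and the folds of highest over lowest array were taken from the untransformed intensities. Line means over all 10 arrays were estimated with limma (version 3.58.1, R 4.3.3; 5 residual degrees of freedom, moderated variances with an intensity trend, two-sided tests, Benjamini-Hochberg adjustment over all probe sets per comparison). Controls are the mean of VC and Col-0. The fit was tested on simulated data. The series text calls the 2 replicates of a genotype independent and biological.

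Of 402 names in 11 pathway and 5 marker lists, 44 probe sets were found. The rule named up to 4 called genes per list, or the 2 with the largest difference between ΔC26 and ΔC27, and the 3 nearest patterns per gene. 4 symbol matches to other genes were left out. Members, lists and rules were chosen with earlier results of these data known. Arrays with the same replicate number showed no strong shared shift: correlations of their deviations from line means lay between -0.2 and 0.086. Whether such arrays were grown or handled together cannot be told from these values. Alternatives were a replicate block, other scalings, variance priors, pseudocounts of 1 and 64, each control alone, no dim probe sets, and left-out arrays. Figures were drawn with matplotlib 3.10.9.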

Additional observations from a re-analysis of the deposited data

Results flagged for a closer look

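PSAE-1, PSBY and RCA drew attention because both ΔC26 arrays lay above the control mean and both ΔC27 arrays below it, as in 5.47% of all probe sets, a share not counted for bright ones alone. Their differences between the truncated lines were 0.61, 0.65 and 0.50 on the log2 scale and did not pass when tested (limma, adjusted p = 0.058, 0.067 and 0.086). In LHCB4.2, PSAN, SBPASE, PRK and NOL the test of ΔC26 against ΔC27 itself passed, at 1.42, 0.80, 1.06, 1.02 and 0.68 (limma, adjusted p = 0.017, 0.014, 0.0066, 0.015 and 0.031). With 2 arrays per line no single array could be tested as standing apart from its group.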

How the results depend on the processing

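For all 4 genes ΔC26 read higher than ΔC27 under each of the 19 alternatives, but the count that passed moved from 0 to 4 with the dimmest probe sets left out, to 3 without an intensity trend, to 2 with a robust prior and to 0 to 2 with 1 array left out. In the F test the count was 1 under the first 3 of these and 0 with 1 array left out. LHCB4.1 in ΔC27 against controls was called in 19 of 21, and 0 to 1 of the 4 genes with 1 array left out. With the replicate number as a block the adjusted p of ΔC26 against ΔC27 were 0.10, 0.079, 0.099 and 0.12 (LHCB4.1, PSAE-1, PSBY, RCA; limma), and probe sets called fell from 670 to 446, in ΔC26 against controls from 617 to 377, in FL3 against ΔC27 from 197 to 122 and in VC against Col-0 from 6 to 2. With ΔC26 replicate 2 and ΔC27 replicate 1 both left out, probe sets called were 142 (ΔC26 against ΔC27), 182 (ΔC26 against controls), 988 (FL3 against controls), 304 (FL3 against ΔC27) and 39 (VC against Col-0). Against VC alone they were 222 in ΔC26, 2522 in ΔC27 and 391 in FL3, and against Col-0 alone 406 in ΔC26 and 391 in FL3. In VC against Col-0 they were 0 with the dimmest probe sets left out, 0 without a trend and 13 with a robust prior, and in FL3 against ΔC26 25 without a trend. With 1 array left out the counts ran from 109 to 1448 (ΔC26 against ΔC27), 71 to 1727 (ΔC26 against controls), 2366 to 4134 (ΔC27 against controls), 57 to 751 (FL3 against controls), 14 to 475 (FL3 against ΔC26), 24 to 1079 (FL3 against ΔC27), 2 to 48 (VC against Col-0) and 1122 to 2802 (F test). The cause was not tested, apart from fewer samples or probe sets by construction.

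Counts of the 25 other genes under alternatives were added after seeing the data. With both arrays left out they were 0 (ΔC26 against ΔC27), 0 (ΔC26 against controls) and 5 (ΔC27 against controls), and with 1 array left out 0 to 6, 0 to 1 and 4 to 9. In ΔC26 against controls the count was 0 with the replicate block and 0 against VC alone. Small differences changed sign. In ΔC26 against controls LHCB4.1 was 0.037 against Col-0 alone, 0.019 without VC replicate 1 and ran from -0.079 to 0.053 with 1 array left out; LHCB4.2 was 0.013 and NOL -0.045 against VC alone. TROL was -0.059 without Col-0 replicate 2 and -0.15 without ΔC26 replicate 2, with or without ΔC27 replicate 1 (range -0.15 to 0.23). LPA2 was -0.062 without Col-0 replicate 2 and -0.0094 without ΔC26 replicate 1 (to 0.11). Without ΔC26 replicate 2, with or without ΔC27 replicate 1, PSB27 was -0.0065 and GI -0.035 (to 0.34 and 0.43). PSBY in FL3 against controls was -0.033 against VC alone and -3.1e-07 without FL3 replicate 1 (to 0.15). ATPC1 in ΔC27 was 0.014 against Col-0 alone. HEMA2 was 0.25 without ΔC27 replicate 1 and 0.33 with both left out (ΔC26 against ΔC27, from -1.28), and -0.43 in both settings in ΔC27 against controls (to 1.11). With 2 arrays per line, a line left with 1 array is assumed to vary like the others.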
